A study of Saccharomyces cerevisiae with 4 samples.

Results

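The genes described here are 40 named genes of de novo and salvage nucleotide synthesis, with the regulator gene BAS1 among them. They were chosen by name, and each was read from the probe set that carries its symbol in the platform annotation. A probe set was found for 39 of the 40, out of 5667 genes and unnamed probe sets on the arrays. ADE5,7 was not analysed here. Of the 39, 38 reached the background level, a signal of 166, on average over the arrays and were tested, and URA10 did not. The URA3 gene was left out of the list because strain BY4742 lacks it.

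Budding yeast make the purine and pyrimidine nucleotides of RNA and DNA from small precursors (de novo synthesis) or take up and reuse bases from the medium (salvage). In the purine pathway, PRPP synthetases supply the activated ribose, the ADE enzymes build inosine monophosphate (IMP), and separate branches turn IMP into AMP and GMP. In yeast the ADE genes are activated by Bas1 together with Pho2 when adenine is scarce and are turned down when adenine is supplied, and the dihydroorotase and dihydroorotate dehydrogenase genes of pyrimidine synthesis are activated by Ppr1.

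Messenger RNA was measured on 4 one-colour arrays, each of total RNA from cells grown in rich glucose medium (YPD) in exponential phase, at an optical density of 0.7. The ada1 deletion strain (ADA1, now HFI1, replaced by KanMX) and the gcn5 deletion strain (GCN5 replaced by KanMX) had 1 array each, and the wild-type strain BY4742 had 2 arrays. All are of the BY4742 background, a haploid of mating type alpha that lacks URA3, LEU2 and LYS2. ADA1 encodes a structural subunit of the coactivator complex SAGA, and GCN5 its histone acetyltransferase. Nothing in the labels says how many clones of a deletion were made, or whether the wild-type samples came from different cultures, so the p-values reflect only how these arrays vary, which may be technical.

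The labels were checked first. The HFI1 signal was 6.70 where ADA1 is deleted, and the GCN5 signal was 3.28 where GCN5 is deleted. URA3, the gene of the last step of uridine monophosphate synthesis, gave at most 2.83 on each array. The 6 a-specific genes all lay below the background level on average. The 4 alpha-specific genes were well above it in wild type, at 3645 to 11518, and all 4 were lower in both deletion strains. MF(ALPHA)2 fell to 134 and 204 in the ada1 and gcn5 deletion strains. In the same order STE3 gave 423 and 517, SAG1 644 and 338, and MF(ALPHA)1 2602 and 4967. The brightest probe sets stood at 21989 for the ada1 deletion and 23746 for wild-type replicate 1, but at 12244 for the gcn5 deletion and 11804 for wild-type replicate 2. Each deletion array is therefore also set against the wild-type array of like signal range, a value with no test.

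Most members were not called changed in either strain, and 5 fell in at least 1 of them. AAH1, which encodes adenine deaminase, fell in both strains by more than 2-fold. FCY2 (the purine-cytosine permease) and HPT1 (hypoxanthine-guanine phosphoribosyltransferase) fell in the ada1 deletion strain. IMD2 (an inosine monophosphate dehydrogenase) and FUR1 (uracil phosphoribosyltransferase) fell in the gcn5 deletion strain, but the FUR1 call ended under 4 of 5 alternative fits and the IMD2 call ended with signals raised to the background level. In RNA of whole cultures, less transcript per cell and fewer cells that express a gene cannot be told apart.

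A gene is called changed at a limma p under 0.05 after Benjamini-Hochberg adjustment over all 4541 genes tested. In the ada1 deletion strain 3 of 38 tested members were called lower and 0 higher, beside 5.70% and 2.73% of all genes tested. In the gcn5 deletion strain the counts were also 3 lower and 0 higher, beside 2.53% and 2.11% of all genes. At an unadjusted p under 0.05 there were 8 members in each comparison (21.1%), beside 16.6% of all genes for the ada1 deletion and 15.0% for the gcn5 deletion. The members' median log2 difference was -0.18 for the ada1 deletion and -0.21 for the gcn5 deletion, whereas the medians over all genes tested were 0.08 and 0.15. Scaling moved the direction of calls over all genes. Of those in the ada1 deletion strain 32.4% were higher as deposited, 43.1% after quantile normalization and 42.8% with a common median, and in the gcn5 deletion strain the shares were 45.5%, 36.7% and 34.0%. Between the strains 32.0%, 50.1% and 53.7% were higher in the ada1 deletion strain.

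A plainer count needs no estimate of spread. In the gcn5 deletion strain 25 of the 38 members lay below both wild-type arrays and 8 above both, against 24.9% and 53.1% of all genes tested. In the ada1 deletion strain 20 lay below both and 7 above both, against 29.9% and 41.5% of all genes. Most members are bright. Among the 1538 genes with a mean signal of 1000 or more, 39.2% lay below both wild-type arrays in the gcn5 deletion strain and 32.8% in the ada1 deletion strain. The 32 members of that brightness had 65.6% below both in the gcn5 deletion strain and 53.1% in the ada1 deletion strain. The part of the arrays' signal range in these shares was not tested. This count and the limit on brightness were chosen after the values were seen.

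**Figure D1:**
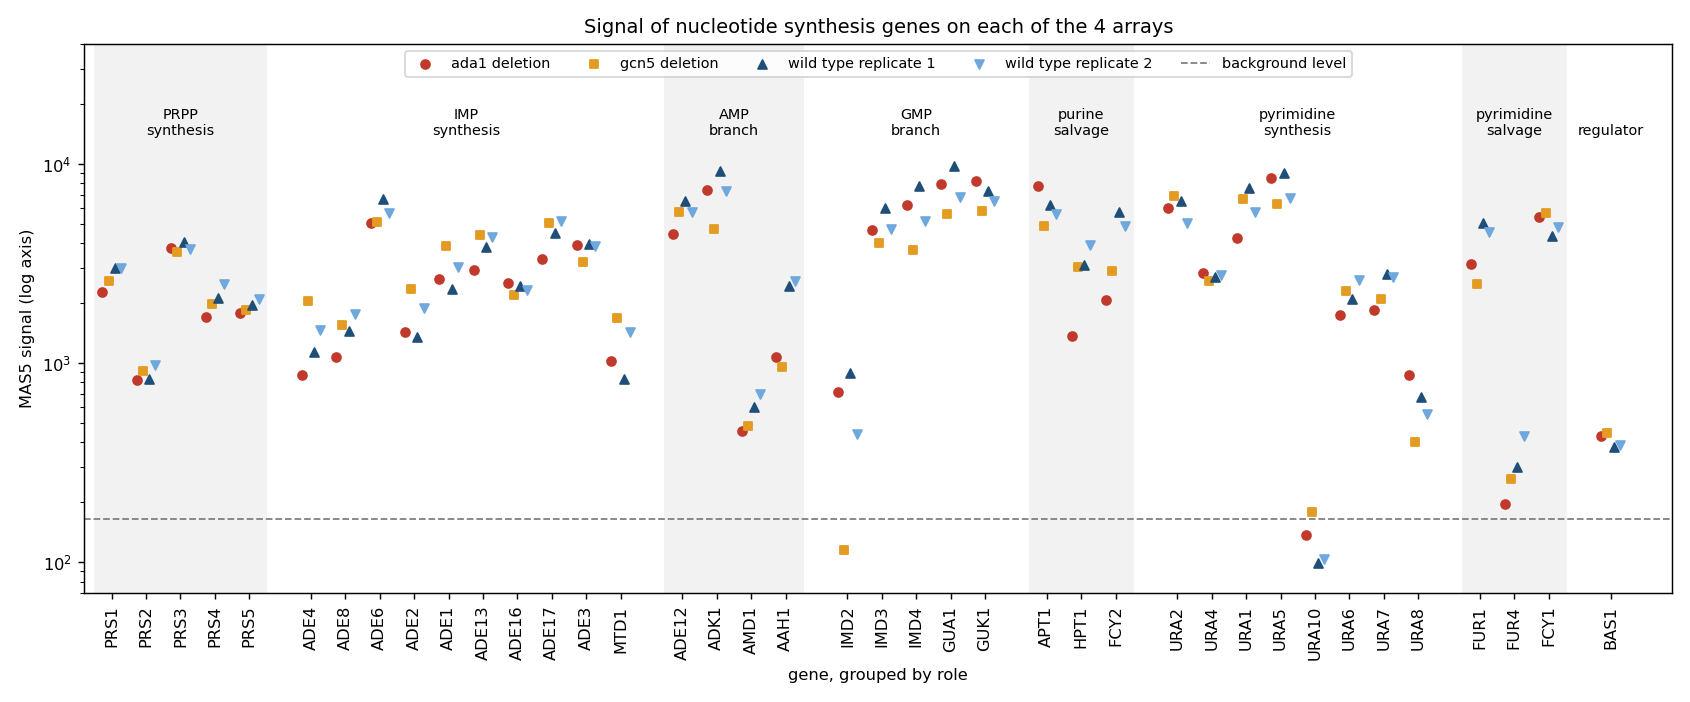
MAS5 signal (log axis) of the 39 genes with a probe set, grouped by role, on the arrays of the ada1 deletion, the gcn5 deletion and wild type. The dashed line is the background level of 166, and a point stands for 1 array. AAH1, FCY2, FUR1 and HPT1 are among the 13 of 38 tested genes that lie below both wild-type arrays in both deletion strains. Over all genes tested this held for 576 of 4541. HPT1 is lowest in the ada1 deletion strain and IMD2 in the gcn5 deletion strain.

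Of the 3 genes grouped as purine uptake and salvage, FCY2 and HPT1 fell in the ada1 deletion strain, and APT1 was not called. These were the largest falls among the members there. FCY2 carries adenine, guanine, hypoxanthine and cytosine into the cell. Its signal was 2062 in the ada1 deletion strain and 2883 in the gcn5 deletion strain, against wild-type signals of 5750.5 and 4888. Both deletion arrays were below both wild-type arrays. In the ada1 deletion strain FCY2 fell by 1.36 ± 0.30 SE on the log2 scale, 2.57-fold (adjusted p = 0.000141, limma, and 0.000140 after quantile normalization). With GCN5 deleted the log2 difference was -0.88 ± 0.30 SE and missed the threshold (adjusted p = 0.0612, limma, over a range of 0.00596 to 0.226 among the alternatives, with a call only after quantile normalization). The strains themselves differed by -0.48 (95% interval -1.16 to 0.19, adjusted p = 0.581, limma), so the data do not show that FCY2 responded differently in them.

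HPT1 turns hypoxanthine and guanine into IMP and GMP. Its signal was 1360 in the ada1 deletion strain and 3028 in the gcn5 deletion strain, against wild-type signals of 3116 and 3920.4. The ada1 deletion array stood alone, and the gcn5 deletion array lay just under the lower wild-type array. HPT1 fell by 1.36 ± 0.25 SE in log2 signal in the ada1 deletion strain (2.57-fold, adjusted p = 1.89e-06, limma, and at most 0.00746 under the 5 alternative fits). With GCN5 deleted the difference was -0.21 ± 0.25 SE (adjusted p = 0.767, limma). Between the strains HPT1 was 2.23-fold lower in the ada1 deletion strain than in the gcn5 deletion strain, a log2 difference of -1.15 ± 0.29 SE (adjusted p = 0.00177, limma). That call ended when arrays shared a common median (0.0881) and with a single variance prior (0.0941), and the difference was -0.82 when each strain was set against its like-range wild-type array.

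APT1, the adenine phosphoribosyltransferase of the same group, did not share this pattern. Its signal was 7719 in the ada1 deletion strain and 4881 in the gcn5 deletion strain, against wild-type signals of 6203 and 5582. The log2 differences of 0.39 and -0.27 had standard errors of 0.46, and neither was called (adjusted p = 0.812 and 0.850, limma).

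AAH1 was grouped here with the AMP branch, although its enzyme does not make AMP from IMP. It was the member of that group called in both strains. Its enzyme deaminates adenine to hypoxanthine, which HPT1 can then use. The AAH1 signal was 1069 in the ada1 deletion strain and 952 in the gcn5 deletion strain, against wild-type signals of 2436 and 2589. The deletion arrays were close to each other, the wild-type arrays were close to each other, and the groups did not overlap. The fall was 1.23 ± 0.22 SE in log2 signal in the ada1 deletion strain (2.35-fold, adjusted p = 6.53e-07, limma) and 1.40 ± 0.22 SE in the gcn5 deletion strain (2.64-fold, adjusted p = 1.84e-08, limma). Both calls held under all 5 alternative fits, where the largest adjusted p-values were 0.0126 and 0.00594, and set against the like-range wild-type array the differences were -1.19 and -1.44. The comparisons share the wild-type arrays, so a deviation of those arrays enters both. The strains differed from each other by 0.17 (95% interval -0.32 to 0.66).

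The other genes grouped with the AMP branch were below the wild-type mean in both strains without a call. ADE12 (adenylosuccinate synthetase) gave 4462 and 5748 in the ada1 and gcn5 deletion strains, against wild-type signals of 6479 and 5756. AMD1 (AMP deaminase) gave 455 and 486, against 599 and 696, and ADK1 (adenylate kinase) gave 7390 and 4691, against 9252 and 7347. The ADK1 difference of -0.81 ± 0.53 SE in the gcn5 deletion strain (adjusted p = 0.493, limma) was -0.70 after quantile normalization and was called there (0.0146). ADE12 was called lower in the ada1 deletion strain in that fit as well, at -0.45 (0.0489), and AMD1 was called lower in the gcn5 deletion strain when arrays shared a common median, at -0.63 (0.0365).

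IMD2 gave the largest fitted difference of any tested member. The IMD genes encode inosine monophosphate dehydrogenase, the enzyme that commits IMP to guanine nucleotides, and in wild-type yeast IMD2 transcription is known to be held low while guanine nucleotides are ample. IMD2 was read by a probe set of the kind that can also detect similar transcripts, the only member of which this was true, so its signal may include other IMD transcripts. It gave 716 in the ada1 deletion strain and 115 in the gcn5 deletion strain, against wild-type signals of 889 and 439. The gcn5 deletion array was the lowest and lay below the background level, while the ada1 deletion array lay between the wild-type arrays. The wild-type arrays themselves were 1.02 apart on the log2 scale, the widest gap among the 38 members, where the median gap was 0.24.

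Because the gcn5 deletion array was below the background level, only a bound can be given for IMD2, at least 3.77-fold lower there than in wild type. That bound is the fit with signals raised to the background level, which was not called (-1.91, adjusted p = 0.0799, limma). The call rests on the deposited signals, with a fitted log2 difference of -2.45 ± 0.39 SE (adjusted p = 6.59e-08, limma, and 0.00201 after quantile normalization). That SE comes from the trend of spread on signal, so the wide wild-type gap of IMD2 itself is not in it. The difference was -1.94 against wild-type replicate 2, the array of like range, and -2.95 against replicate 1. In the ada1 deletion strain the difference was 0.20 ± 0.39 SE (adjusted p = 0.935, limma), and it was -0.31 against the like-range wild-type array. Between the strains the bound was at least 4.32-fold higher in the ada1 deletion strain than in the gcn5 deletion strain, again not called in the fit with raised signals (2.11, adjusted p = 0.0826, limma). The difference fitted to the deposited signals was 2.64 and was called (adjusted p = 3.72e-07, limma), and it was 1.62 when each was set against its like-range wild-type array.

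The paralogs IMD3 and IMD4, which have probe sets of their own, had smaller fitted differences in the gcn5 deletion strain. The IMD3 signal was 4681 in the ada1 deletion strain and 4020.1 in the gcn5 deletion strain, against wild-type signals of 6013 and 4738. IMD4 had 6192 and 3689, against 7701 and 5196. Both were lowest in the gcn5 deletion strain, with log2 differences of -0.41 ± 0.37 SE and -0.78 ± 0.42 SE that were not called (adjusted p = 0.665 and 0.375, limma), although IMD4 was called lower after quantile normalization (-0.63, 0.0270).

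Downstream, GUA1 (GMP synthetase) and GUK1 (guanylate kinase) were not called in either strain. GUA1 gave 7908 and 5578 in the ada1 and gcn5 deletion strains, against wild-type signals of 9749 and 6835, and GUK1 gave 8174 and 5779.8, against 7307 and 6531. All 5 GMP branch genes were lower in the gcn5 deletion strain than on either wild-type array, with a median log2 difference of -0.55. Of all genes tested 24.9% lay below both wild-type arrays there, and of those with a mean signal of 1000 or more 39.2%. All 5 GMP branch genes were also higher on wild-type replicate 1 than on replicate 2, by a median of 0.51. Their median difference from the like-range array was -0.29. The part of the signal range in this pattern was not tested.

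The genes of IMP synthesis were not called in either strain against wild type. Their median log2 difference was -0.22 in the ada1 deletion strain, where 5 of 10 tested genes lay below both wild-type arrays and 1 above. It was 0.09 in the gcn5 deletion strain, where 3 lay below both and 5 above. Over all genes tested, 29.9% lay below both and 41.5% above both in the ada1 deletion strain. In the gcn5 deletion strain the shares were 24.9% and 53.1%. ADE4 encodes the amidotransferase that begins the pathway and is the step that purine nucleotides inhibit. It gave 869 in the ada1 deletion strain and 2047 in the gcn5 deletion strain, against wild-type signals of 1134 and 1469. The ada1 deletion array was below both wild-type arrays and the gcn5 deletion array above both.

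Neither ADE4 difference from wild type was called, at -0.57 ± 0.22 SE (adjusted p = 0.0941, limma) and 0.67 ± 0.22 SE (0.0531). The first was called only when arrays shared a common median (0.0498), and the second by no alternative. Between the strains ADE4 was 2.36-fold lower in the ada1 deletion strain than in the gcn5 deletion strain, a log2 difference of -1.24 ± 0.25 SE (adjusted p = 5.38e-05, limma, and 0.00387 after quantile normalization). The call ended with a single variance prior (0.0579), and the difference was -0.86 when each strain was set against its like-range wild-type array.

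ADE8 (glycinamide ribotide transformylase) gave 1076 in the ada1 deletion strain and 1554 in the gcn5 deletion strain, against wild-type signals of 1442 and 1760. Its difference in the ada1 deletion strain was -0.57 ± 0.22 SE (adjusted p = 0.0929, limma). The loss of ADE2 or ADE1 makes yeast colonies red. ADE2 gave 1426 in the ada1 deletion strain and 2366 in the gcn5 deletion strain, against wild-type signals of 1344 and 1892. ADE1 gave 2648 and 3890, in the same order, against wild-type signals of 2354 and 3021. Each was highest in the gcn5 deletion strain, at 0.57 ± 0.22 SE for ADE2 and 0.54 ± 0.26 SE for ADE1, and neither was called (adjusted p = 0.124 and 0.288, limma), while ADE1 was called after quantile normalization (0.0373).

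MTD1, a methylenetetrahydrofolate dehydrogenase of folate metabolism, differed between the wild-type arrays. It gave 1027 in the ada1 deletion strain and 1678 in the gcn5 deletion strain, against wild-type signals of 835 and 1435. The gap between the wild-type arrays was 0.78 on the log2 scale. The gcn5 difference was 0.62 ± 0.22 SE against their mean (adjusted p = 0.0993, limma) but 0.23 against the like-range array. That SE comes from the trend of spread on signal, so the wild-type gap of MTD1 itself is not in it. The gap between strains was -0.71 as fitted and 0.07 with each strain against its like-range array.

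The remaining genes of the group, ADE6, ADE13, ADE16, ADE17 and the trifunctional folate enzyme gene ADE3, ranged from -0.53 to 0.09 for the ada1 deletion and from -0.29 to 0.11 for the gcn5 deletion on the log2 scale. ADE17 and ADE16 encode isozymes of the transformylase that completes IMP. ADE17 gave 3349 and 5049 in the ada1 and gcn5 deletion strains, against wild-type signals of 4514 and 5155, and ADE16 gave 2529.7 and 2198, against 2434 and 2330.2. Neither was called against wild type.

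Across the 10 genes of IMP synthesis, 8 had a lower signal in the ada1 deletion strain than in the gcn5 deletion strain, as did 59.0% of all genes tested. The median log2 difference was -0.57 beside -0.11 over all genes tested. The group's median was -0.62 after quantile normalization and -0.24 with each strain against its like-range wild-type array. Of all tested members, 2 were called lower (ADE4 and HPT1) and 1 higher (IMD2) between the strains, beside 4.25% and 2.0% of all genes. ADE13 (adenylosuccinate lyase) and ADE17 were called lower after quantile normalization, at -0.68 (adjusted p = 0.0313, limma) and -0.72 (0.0387). Because each deletion array shares its signal range with a different wild-type array, strain and range cannot be told apart in the direct comparison.

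**Figure D2:**
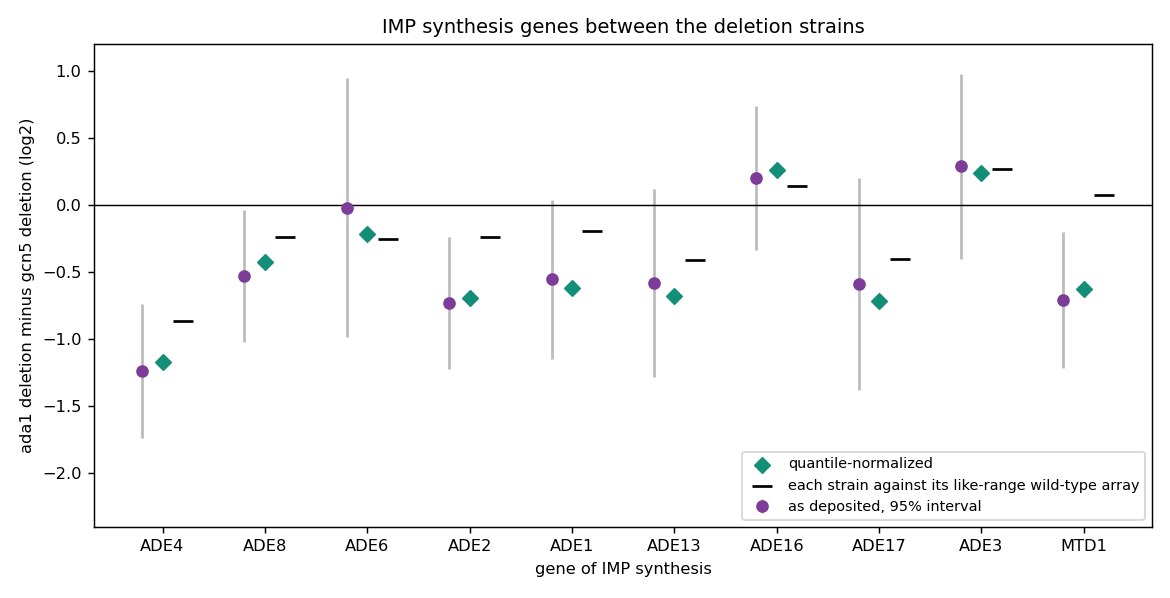
Difference in log2 signal between the ada1 and gcn5 deletion strains for 10 genes of IMP synthesis. Circles with 95% intervals show the deposited signals, diamonds the quantile-normalized ones and bars the difference when each strain is set against the wild-type array of like signal range. ADE4 stands at -1.24, -1.17 and -0.86, and MTD1 moves from -0.71 to 0.07.

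No PRPP synthetase gene was called. PRS1 to PRS5 had log2 differences of -0.43 to -0.04 for the ada1 deletion and -0.22 to 0.02 for the gcn5 deletion, with standard errors of 0.22 to 0.31. PRS4 had the lowest value in the ada1 deletion strain, with 1705 there and 1981 in the gcn5 deletion strain, against wild-type signals of 2113 and 2498. The 95% interval of that difference ran from -0.87 to 0.01.

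Genes of pyrimidine synthesis were not called in either strain against wild type. URA2 encodes the large enzyme that starts the pathway, URA4 dihydroorotase, URA1 dihydroorotate dehydrogenase, and URA5 and URA10 the paired orotate phosphoribosyltransferases. URA1 gave 4248 in the ada1 deletion strain and 6667 in the gcn5 deletion strain, against wild-type signals of 7575 and 5759. The ada1 deletion array was the lowest, at -0.64 ± 0.45 SE in log2 signal (adjusted p = 0.561, limma), and this was called after quantile normalization, at -0.59 (0.0114). URA2 gave 6009 and 6887, against wild-type signals of 6514 and 5054, and was called higher in the gcn5 deletion strain after quantile normalization (0.53, adjusted p = 0.0351, limma). URA4 was nearly level, with 2826 and 2581, against 2693 and 2755.

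URA5 gave 8532 in the ada1 deletion strain and 6312 in the gcn5 deletion strain, against wild-type signals of 8987 and 6703, so each deletion array was within 0.09 on the log2 scale of its like-range wild-type array. URA10, its minor partner, was the untested member. It gave 137 and 179 in the ada1 and gcn5 deletion strains, against wild-type signals of 99.6 and 104. Only the gcn5 deletion array passed the background level, which makes URA10 at least 1.08-fold higher there.

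The nucleotide kinase and CTP synthetase genes followed. URA6 (uridylate kinase) gave 1739 and 2292 in the ada1 and gcn5 deletion strains, against wild-type signals of 2102 and 2617. The CTP synthetase genes URA7 and URA8 differed in pattern. URA7 gave 1844 and 2097, against 2801 and 2698, and was below both wild-type arrays in both strains, at -0.58 ± 0.23 SE (adjusted p = 0.126, limma) and -0.39 ± 0.23 SE (0.453).

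URA8 gave 867 in the ada1 deletion strain and 400.1 in the gcn5 deletion strain, against wild-type signals of 672 and 552. It was above both wild-type arrays in the ada1 deletion strain and below both in the gcn5 deletion strain. The strains differed by 1.12 ± 0.38 SE on the log2 scale, which narrowly missed the threshold (adjusted p = 0.0533, limma). This difference was called after quantile normalization (1.35, 0.00883), when arrays shared a common median (1.32, 2.65e-06) and with dim probe sets kept in (0.0148), and it was 0.83 with each strain against its like-range wild-type array. Against wild type, URA8 was called lower in the gcn5 deletion strain when arrays shared a common median (-0.82, adjusted p = 0.00211, limma) and under no other fit.

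Of the pyrimidine salvage genes, FUR1 had the clearest fall. FUR1 turns uracil into uridine monophosphate, and these strains, lacking URA3, depend on uracil or uridine from the medium. FUR1 gave 3161 in the ada1 deletion strain and 2492 in the gcn5 deletion strain, against wild-type signals of 5063 and 4562. Both deletion arrays were below both wild-type arrays. In the gcn5 deletion strain FUR1 fell by 0.95 ± 0.30 SE in log2 signal (1.93-fold, adjusted p = 0.0400, limma, and 0.00317 after quantile normalization). That call ended under 4 of the 5 alternative fits, with adjusted p-values of 0.0771 to 0.168. In the ada1 deletion strain the difference was -0.60 ± 0.30 SE (adjusted p = 0.283, limma), called only after quantile normalization (0.0258).

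FUR4, the plasma membrane uracil permease, lay below both wild-type arrays in both strains. It gave 197 in the ada1 deletion strain and 263 in the gcn5 deletion strain, against wild-type signals of 299 and 432. The log2 differences were -0.87 ± 0.40 SE (adjusted p = 0.218, limma) and -0.45 ± 0.40 SE (0.647). The first was called after quantile normalization (0.0130) and when arrays shared a common median (0.00192), and the second after that scaling (0.0403).

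FCY1, cytosine deaminase, leaned the other way. It gave 5428 and 5698 in the ada1 and gcn5 deletion strains, against wild-type signals of 4325 and 4827, and was above both wild-type arrays in both strains. Its differences of 0.25 and 0.32 had standard errors of 0.39, and neither was called (adjusted p = 0.900 and 0.770, limma).

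**Figure D3:**
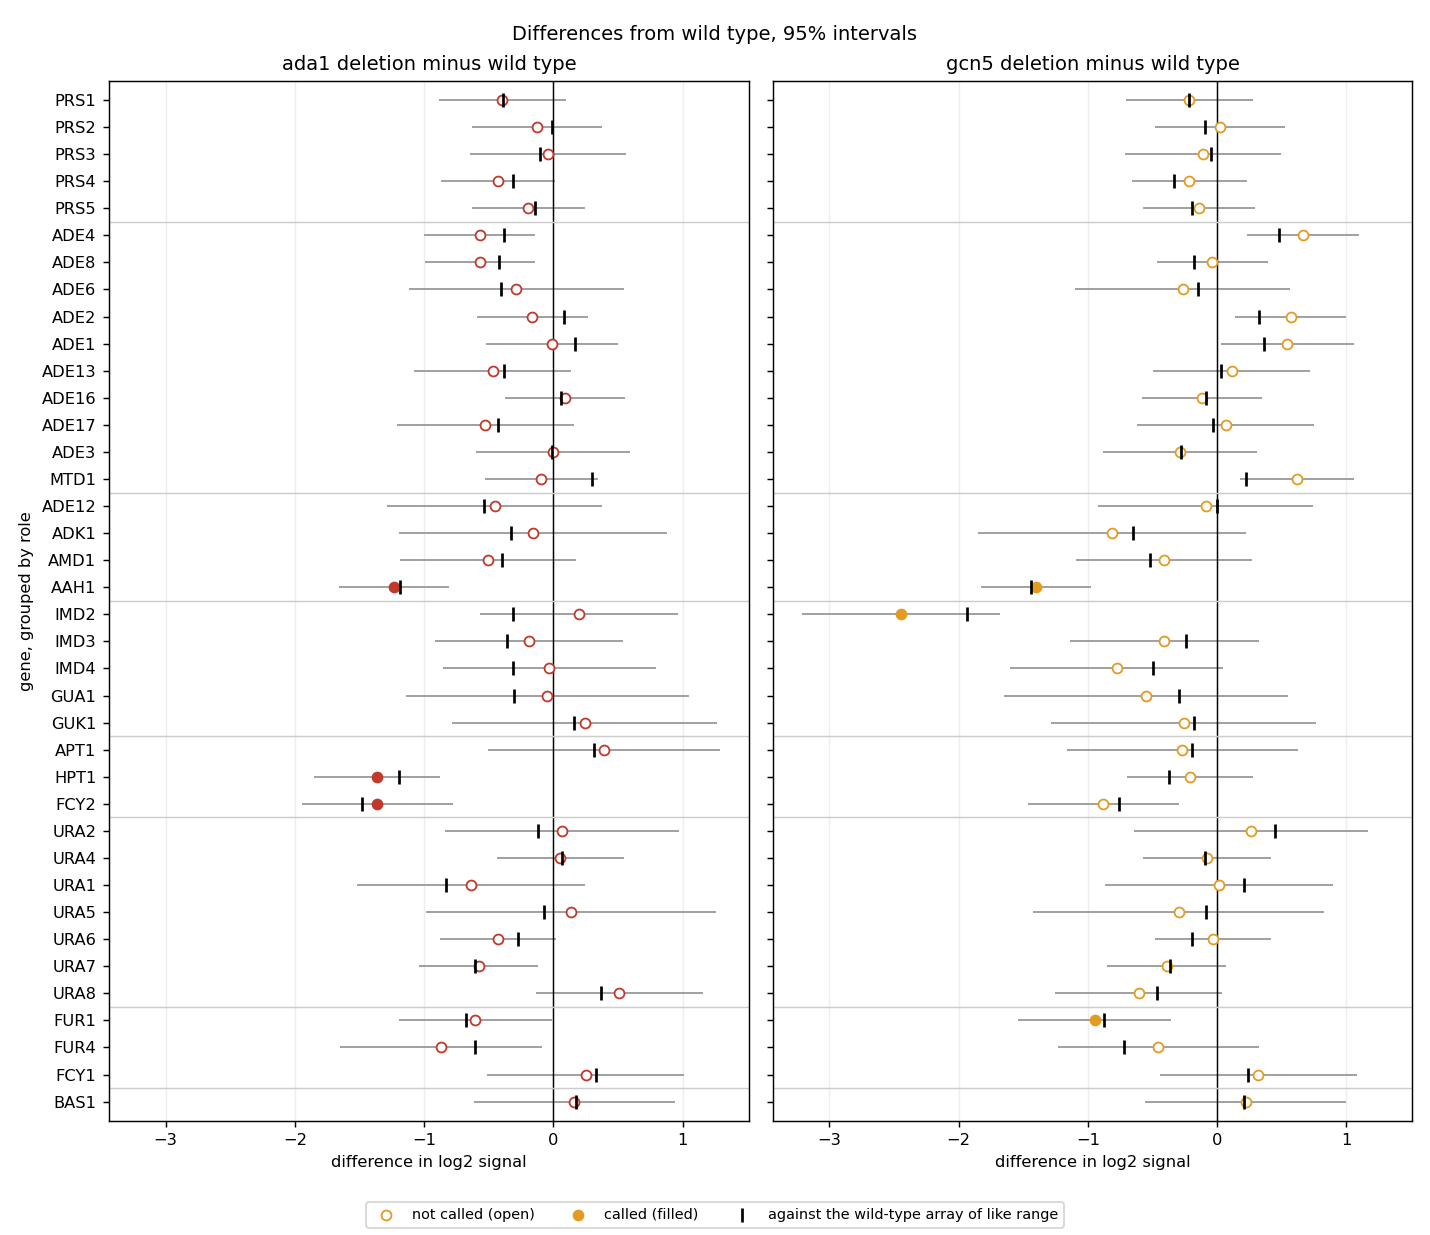
Difference in log2 signal from the wild-type mean for the 38 tested genes in the ada1 and gcn5 deletion strains, with 95% intervals from the limma fit. Filled circles are called, open circles are not, and black ticks show the difference from the wild-type array of like signal range. AAH1 is called in both panels, HPT1 and FCY2 in the ada1 deletion strain, and IMD2 and FUR1 in the gcn5 deletion strain.

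BAS1, the regulator of the ADE genes, was not called in either strain. It gave 428 and 446 in the ada1 and gcn5 deletion strains, against wild-type signals of 378 and 387. Both differences were small and positive, at 0.16 and 0.22 with standard errors of 0.40, and the second was -0.01 after quantile normalization. PHO2, the partner of Bas1, gave 178 and 256, against 123 and 194, and PPR1 gave 301 and 214, against 258 and 290.2. Neither was called in either strain.

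Other genes known to be controlled by Bas1 were read for comparison. Of 8 tested, 1 was called lower in the ada1 deletion strain and 0 in the gcn5 deletion strain, with none higher. Over all genes tested, 5.70% and 2.53% were called lower, and 2.73% and 2.11% higher. At an unadjusted limma p under 0.05 there were 2 and 0 of the 8, beside 16.6% and 15.0% of all genes. The median log2 differences of the 8 were -0.06 and 0.07. The called gene was HIS4 of histidine synthesis. It gave 1339 in the ada1 deletion strain and 5073 in the gcn5 deletion strain, against wild-type signals of 3920 and 3466. In the ada1 deletion strain HIS4 fell by 1.46 ± 0.27 SE in log2 signal (adjusted p = 2.64e-06, limma). With GCN5 deleted it was called higher after quantile normalization (0.63, adjusted p = 0.0270, limma). Between the strains HIS4 differed by -1.92 ± 0.31 SE (adjusted p = 5.74e-08, limma). HIS1, the gene of the step that joins PRPP to ATP, gave 3054 and 6296, against 7930 and 6123, and its difference of -1.19 ± 0.42 SE in the ada1 deletion strain was not called (0.0556) except after quantile normalization (-1.11, adjusted p = 0.000253, limma). SHM2, GCV1, GCV2 and GCV3, which supply folate-bound carbon units, stayed between -0.35 and 0.27 in both strains.

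Of 20 other tested genes of salvage, uptake and nucleotide synthesis, 1 was called lower with the ada1 deletion and 2 with the gcn5 deletion. None was called higher. Over all genes tested, 5.70% and 2.53% were called lower, and 2.73% and 2.11% higher. At an unadjusted limma p under 0.05 there were 3 and 5 of the 20, beside 16.6% and 15.0% of all genes. FUI1, the uridine permease, was called in both. It gave 1277 and 1213 in the ada1 and gcn5 deletion strains, against wild-type signals of 1940 and 2233, with falls of 0.70 ± 0.22 SE and 0.78 ± 0.22 SE in log2 signal (adjusted p = 0.0180 and 0.0115, limma). FCY21, a relative of FCY2, gave 235 and 89.0, against 269 and 302. With the gcn5 deletion array below the background level, it was at least 1.72-fold lower there, a bound with no test of its own. The call is of the fitted log2 difference of -1.68 ± 0.36 SE on the deposited signals (adjusted p = 0.000194, limma).

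CPA1 encodes a subunit of the carbamoyl phosphate synthetase that serves arginine synthesis. It gave 1172 in the ada1 deletion strain and 2709 in the gcn5 deletion strain, against wild-type signals of 1810 and 1626. Neither difference from wild type was called (adjusted p = 0.111 and 0.0543, limma), but the strains differed by -1.21 ± 0.25 SE in log2 signal (adjusted p = 7.59e-05, limma). After quantile normalization CPA1 was called higher in the gcn5 deletion strain (0.69, adjusted p = 0.0396, limma). In that fit 3 of the 20 genes were called lower there and 1 higher, beside 5.44% and 3.15% of all genes. FUN26 was the gene added below (-0.62, adjusted p = 0.0497, limma). Thymidylate and deoxynucleotide genes, among them CDC8, CDC21, DUT1, DCD1 and DFR1, ranged from -0.52 to 0.51 over both strains with no call.

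**Figure D4:**
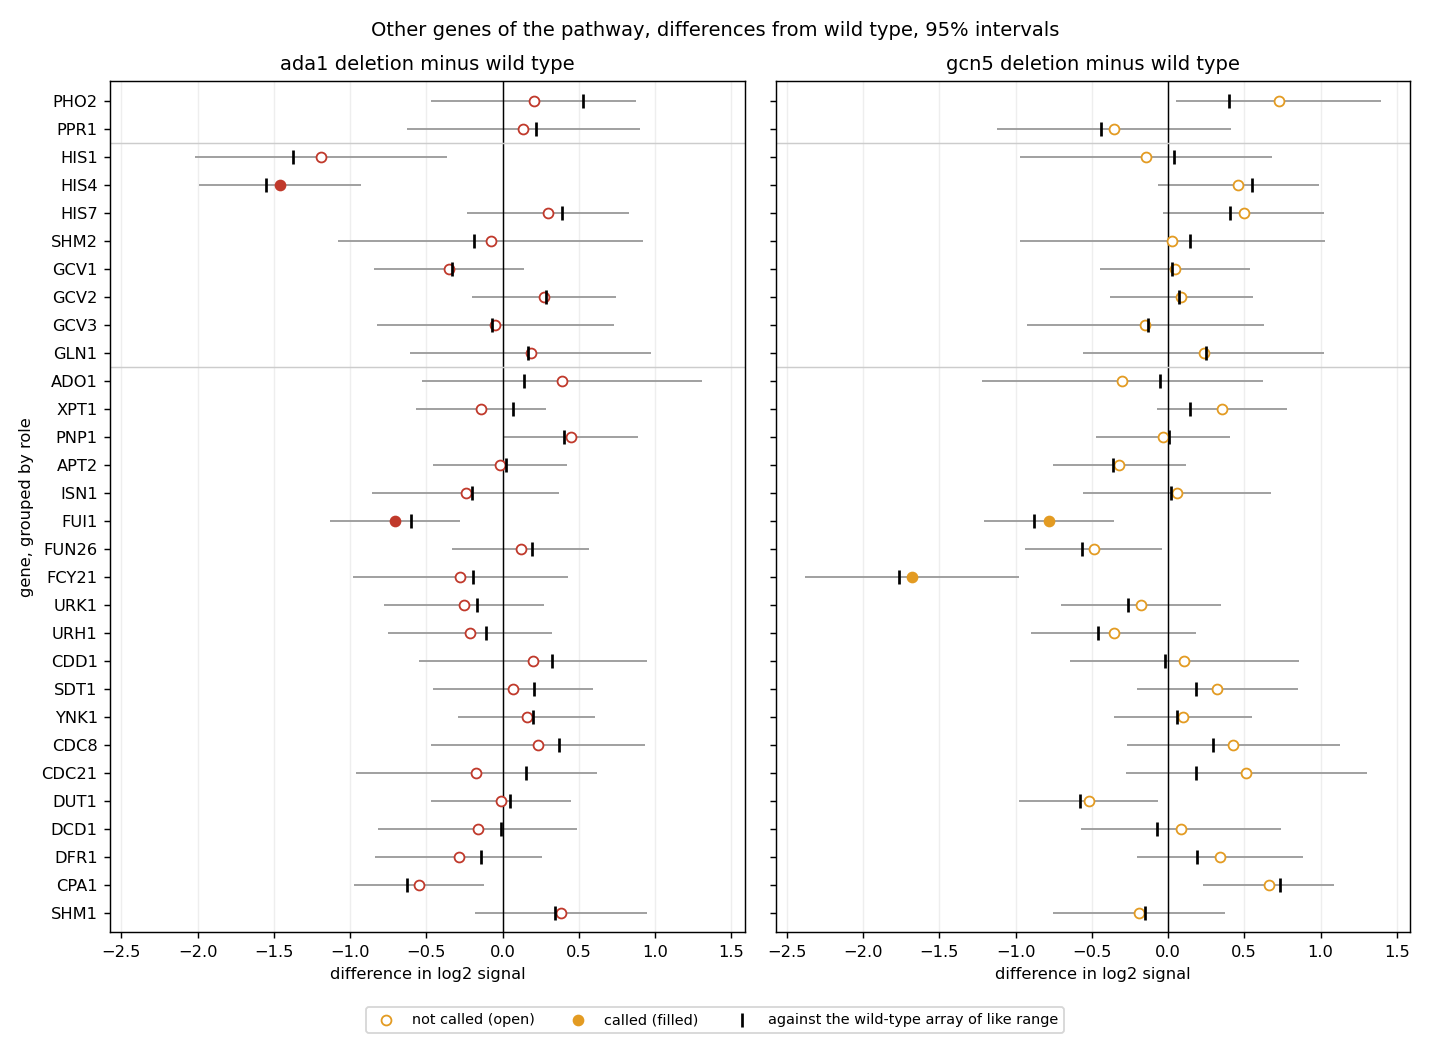
Difference in log2 signal from the wild-type mean for 30 other tested genes of the pathway in the ada1 and gcn5 deletion strains, drawn as for the members, with 95% intervals, filled circles for calls and black ticks for the like-range wild-type array. HIS4 and FUI1 are called in the ada1 deletion strain, and FUI1 and FCY21 in the gcn5 deletion strain.

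After quantile normalization, which takes out the difference in signal range, more members were called. In the ada1 deletion strain 7 were lower and 0 higher, beside 8.68% and 6.56% of all genes, and the added genes were ADE12, URA1, FUR1 and FUR4. In the gcn5 deletion strain 6 were lower and 2 higher, beside 5.44% and 3.15% of all genes, and the added genes were ADK1, IMD4 and FCY2 below and ADE1 and URA2 above. Between the strains 6 were lower and 3 higher in the ada1 deletion strain, beside 6.34% and 6.36% of all genes. In that last comparison the added genes were IMD4 and URA8 above and ADE12, ADE13, ADE17 and URA1 below. Every call of the fit to the deposited signals was also made in this fit.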

How the data were processed

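Total RNA of 4 yeast samples was measured on one-colour arrays. The deposited values are MAS5 intensity, not logged, with 1 value for each probe set; MAS5 is named in the submitters' processing notes, without a version. The scaling target is not given in the sources used here. No build is named, so no coordinates are given.

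Log2 signals were fitted over the 3 groups with limma 3.58.1 (R 4.3.3), with a variance trend on mean signal and Benjamini-Hochberg adjustment over 4541 genes at or above the 20th percentile of mean log2 signal. For the 47 genes with several probe sets, the one with the highest mean log2 signal was kept, and each member had 1. All 5498 named probe sets of 5716 matched the RefSeq table. The fit has 1 residual degree of freedom, from the wild-type arrays, and an infinite prior, so the standard errors come from the trend of spread on signal. The lone deletion arrays are assumed to vary like wild type, and the number of arrays limits the precision.

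The alternatives were quantile normalization, a common median, no filter, signals raised to the background level and a single variance prior, with leaving out a wild-type array and the like-range pairs as values without a test. The members, lists and alternatives were chosen with earlier results of these data known. Signals on all arrays were to be named for members called in any comparison, for those at least 2-fold from each wild-type array in the same direction, for their paralogs and for BAS1. The uncalled members named beyond these were chosen after their values were seen.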

Additional observations from a re-analysis of the deposited data

How the results depend on the processing

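With 1 array per deletion strain, the calls rest on the spread of 2 wild-type arrays. Calls of AAH1, HPT1 and FCY2 in the ada1 deletion strain and of AAH1 in the gcn5 deletion strain held under all 5 alternative fits, and no direction of a called member reversed. Members called lower in the ada1 deletion strain, 3 as deposited, numbered 7 after quantile normalization and 5 with a common median. In the gcn5 deletion strain the 3 lower calls became 6, 5 and, with signals raised to the background level, 1, and the 0 higher calls became 2 after quantile normalization. Between the strains the 1 higher call became 3 after quantile normalization, 2 with a common median, 2 without the filter and 0 with raised signals. The 2 lower calls there became 6, 1 and, with a single variance prior, 0, while 7 members had an unadjusted limma p under 0.05 in the main fit. Over all genes the ada1 count of 383 became 692 after quantile normalization, 692 with a common median and 245 with a single prior. The gcn5 count of 211 became 390, 477, 106 with raised signals and 123 with a single prior. The count of 284 between the strains became 577, 564, 135 and 187 under the same alternatives. Without 1 wild-type array in turn, the AAH1 difference was -1.28 to -1.19 in the ada1 and -1.44 to -1.36 in the gcn5 deletion strain, and IMD2 was -2.95 to -1.94 in the gcn5 deletion strain. The cause of these changes was not tested. No paired analysis was possible because each deletion strain had 1 array and the labels name no pairing.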
